A study of Mus musculus with 28 samples.

Results

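The 10 genes of the stress kinase cascade headed by apoptosis signal-regulating kinase 1 (ASK1) described here were followed across mouse livers and cultures labelled as macrophages. They were taken by name from the deposited tables: Map3k5 (which encodes ASK1), Map3k6, Txn1, Map2k3, Map2k4, Map2k6, Map2k7, Mapk8, Mapk9 and Mapk14. All 10 were present in each table, among 17752 genes for livers and 21959 and 56748 for the ASK1 and NFATc3 knock-in culture sets. The study sequenced messenger RNA from 16 livers and 12 cultures labelled as bone marrow-derived macrophages (BMDMs). The livers came from male mice that were given a methionine- and choline-deficient diet, which brings on steatohepatitis, for 4 weeks from the age of 8 weeks. They carried 4 labels with 4 livers each: MDKO (knockout of both NFATc3 and ASK1), ASK1-MKO and NFATc3-MKO (macrophage knockout of one of them), and Lyz2-Cre, the controls. The cultures were grown for 7 days with 30% L929-conditioned medium and carried the labels ASK1-MKI and NFATc3-MKI (macrophage knock-in), each with controls of its own (3 cultures per group). Lyz2-Cre is a recombinase driven by the promoter of the myeloid gene Lyz2. The labels do not state which driver or which deleted exons the knockouts have, what the knock-ins insert, or whether libraries of a group came from separate animals, so p-values measure the spread between these libraries.

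ASK1 is a MAP kinase kinase kinase (MAP3K) that is held inactive by reduced thioredoxin and released by oxidative stress. It then phosphorylates the MAP kinase kinases (MAP2Ks), which in turn switch on the kinases JNK and p38. In fatty liver disease this cascade is known for its part in hepatocyte death and inflammation. The cascade is controlled mainly by phosphorylation, which RNA levels do not show.

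Values are given as CPM, the counts divided by the scaled library size. Several libraries stood apart from what their labels name. Among the 16 livers, each MDKO library was closest to the Lyz2-Cre library of the same number, at a root mean square difference of 0.259 to 0.314 in log2 CPM over 11896 genes. The closest other MDKO library lay at 0.319 to 0.5. Each Lyz2-Cre library was likewise closest to the MDKO library of its number, with its nearest Lyz2-Cre library at 0.326 to 0.423. NFATc3-MKO replicate 1 was closest to ASK1-MKO replicate 1 (0.475, against 0.526 to 0.691 to its own group). Depth was 20601146 to 30834525 counts for 15 livers but 8912104 for MDKO replicate 3, 16051951 to 18728508 in the ASK1-MKI set and 7693464 to 9398163 in the NFATc3-MKI set. Livers had Alb, the hepatocyte albumin gene, at 57900 to 107000 CPM. In the ASK1-MKI set the macrophage gene Adgre1 stood at 3270 to 3330 CPM in ASK1-MKI cultures and 2670 to 2720 CPM in their controls. In the NFATc3-MKI set it stood at 32.6 to 36.3 CPM in NFATc3-MKI cultures and 30.0 to 32.2 CPM in their controls, and Mertk, another macrophage gene, at 0 to 0.119 CPM in NFATc3-MKI cultures and 0 to 0.133 CPM in their controls. Other macrophage markers were expressed in that set. The 10 pan-macrophage markers summed to 2408 to 2640 CPM in NFATc3-MKI cultures and 1723 to 1842 CPM in their controls. They summed to 36130 to 38110 CPM in ASK1-MKI cultures and 34040 to 36370 CPM in their controls. The NFATc3-MKI set is therefore named by its label only. Nfatc3 averaged 28.31 ± 5.78 CPM in livers labelled NFATc3-MKO and 36.28 ± 3.94 CPM in Lyz2-Cre livers (SD, n = 4; edgeR adjusted p = 0.12). In cultures labelled NFATc3-MKI, whose insert the labels do not state, it fell to 81.12 ± 8.04 CPM. Their controls had 97.44 ± 7.32 CPM (SD, n = 3; edgeR adjusted p = 0.0371). DESeq2 did not make that call (0.0523), nor did edgeR after dropping NFATc3-MKI replicate 1 or 3 or control replicate 2 or 3 (up to 0.166, in a range from 0.00319).

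The levels of the 10 genes spanned a wide range when set per length. In Lyz2-Cre livers, CPM per kilobase of exon (CPM per kb) were highest for Txn1, which encodes thioredoxin, at 162.9 ± 23.1 (SD, n = 4). Mapk14, the p38 alpha gene, and Map2k3, a MAP2K for p38, followed at 20.21 ± 2.59 and 19.78 ± 3.19 CPM per kb, a gap within their spread. Mapk9, the JNK2 gene, stood at 9.828 ± 0.279 and Map2k4, a MAP2K for JNK, at 8.625 ± 0.476 CPM per kb. Map3k5 stood at 5.076 ± 0.364, Map2k7, a JNK-specific MAP2K, at 4.443 ± 0.243, and Map2k6, the second p38 MAP2K, at 2.10 ± 0.47 CPM per kb. Mapk8, the JNK1 gene, had 1.517 ± 0.133 and Map3k6, which encodes the relative ASK2, 0.3336 ± 0.117 CPM per kb. In cultures Txn1 was again at the top, at 372.3 ± 3.63 CPM per kb in ASK1-MKI cultures and 341.9 ± 10.6 in their controls (SD, n = 3).

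**Figure D1:**
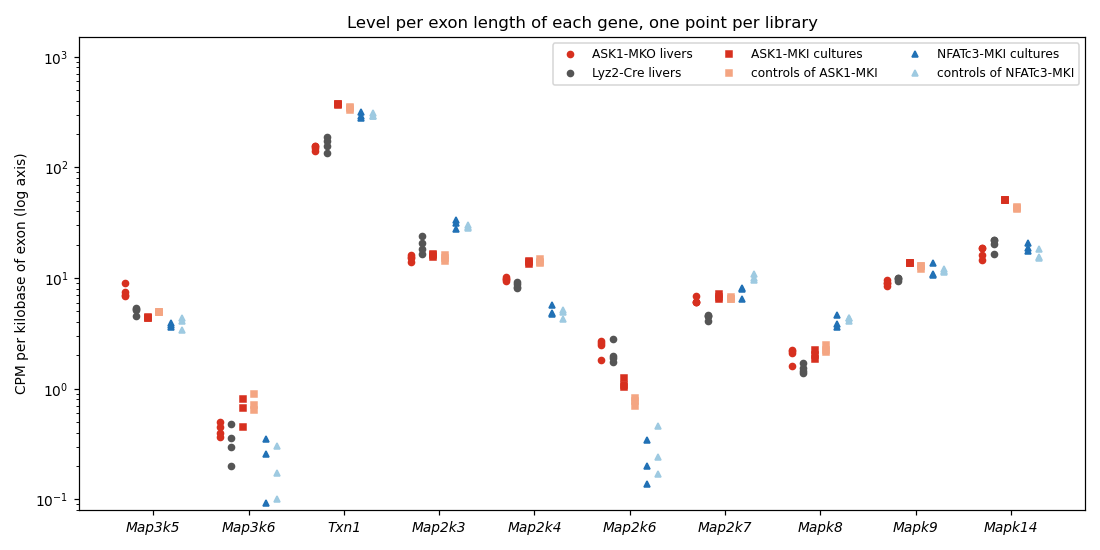
Level of each gene per kilobase of exon, on a log axis, with 1 point per library, for livers labelled ASK1-MKO and Lyz2-Cre and for both culture sets. Txn1 lies highest in every group shown (162.9 CPM per kb on average in Lyz2-Cre livers) and Map3k6 lies near the bottom (0.3336).

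Changes between liver groups were few and concerned single genes. Against Lyz2-Cre livers, 2 of the 10 genes (Map3k5 and Map2k7) rose in livers labelled ASK1-MKO, where 8.46% of the 13309 genes tested changed in either direction (4.46% higher and 4% lower). In livers labelled NFATc3-MKO 1 of 10 (Mapk14) fell, where 8.45% of all genes changed (3.77% higher and 4.67% lower). In MDKO livers 0 of 10 changed and 0% of all genes did. In that comparison edgeR gave an unadjusted p under 0.05 to 0 of the 10 genes and to 35 of all 13309 genes. DESeq2 and voom also called 0 of the 10. Same-numbered MDKO and Lyz2-Cre libraries deviated together (correlations of 0.24 to 0.53 over genes). The main fit did not pair them, and its 0 calls do not show that these groups are equal. A gene was called changed where the p of edgeR's quasi-likelihood test, adjusted over all genes, was under 0.05. The median log2 difference of the 10 genes was 0.19 for ASK1-MKO, 0.14 for NFATc3-MKO and 0 for MDKO, beside −0.027, 0.028 and −0.005 over all genes tested. These comparisons share the Lyz2-Cre libraries.

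**Figure D2:**
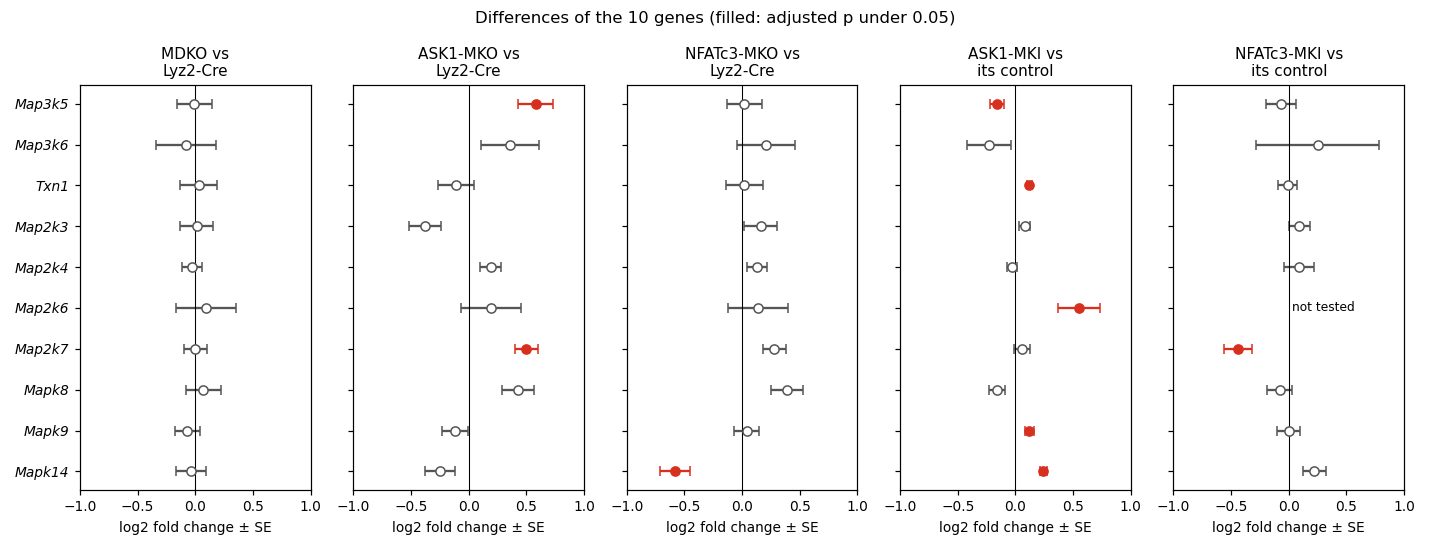
Log2 fold change ± SE of the 10 genes for each labelled group against its controls, with filled points where edgeR's adjusted p was under 0.05. In livers Map3k5 (0.58) and Map2k7 (0.50) are filled for ASK1-MKO and Mapk14 (−0.58) for NFATc3-MKO, and no point is filled for MDKO.

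The level of Map3k5 itself was highest in the livers labelled ASK1-MKO, but not in MDKO livers, which are also labelled as lacking ASK1. Its values were 28.22, 32.33, 29.25 and 32.43 CPM in MDKO livers, 41.66, 55.14, 45.41 and 42.82 CPM in ASK1-MKO livers, 43.88, 27.43, 24.08 and 29.47 CPM in NFATc3-MKO livers, and 32.74, 31.82, 27.69 and 31.31 CPM in Lyz2-Cre livers. All 4 ASK1-MKO livers lay above all MDKO and Lyz2-Cre livers, and NFATc3-MKO replicate 1 lay within the ASK1-MKO range. Against Lyz2-Cre livers Map3k5 rose in ASK1-MKO livers by 0.58 ± 0.15 on the log2 scale (SE; edgeR adjusted p = 0.0262; two-sided exact permutation p = 0.0286, the smallest that 4 against 4 allows). This call goes against the label. A whole-gene count can hold reads from exons outside a deleted part and from cells other than macrophages, in Lyz2-Cre livers too. The cause of the rise was not tested. Dropping 1 liver ended it in 3 cases, with an edgeR adjusted p of 0.0861 for ASK1-MKO replicate 2 (log2 0.51), 0.0887 for Lyz2-Cre replicate 3 and 0.0645 for Lyz2-Cre replicate 4. Over the settings run the adjusted p spanned 0.00133 to 0.0887.

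In order of mean level, Map3k5 stood at 46.26 ± 6.13 CPM in ASK1-MKO livers, 31.22 ± 8.73 in NFATc3-MKO livers, 30.89 ± 2.21 in Lyz2-Cre livers and 30.56 ± 2.15 in MDKO livers (SD, n = 4 each). The last 3 groups did not differ beyond their spread. Between NFATc3-MKO and Lyz2-Cre livers the log2 difference was 0.02 with all libraries and −0.19 without NFATc3-MKO replicate 1 (edgeR adjusted p = 0.959 and 0.319). Map3k5 fell in MDKO livers relative to ASK1-MKO livers (−0.60 ± 0.15 SE, edgeR adjusted p = 0.0252), a call lost without ASK1-MKO replicate 2 or MDKO replicate 1, 3 or 4 (adjusted p 0.0536 to 0.0856). It was higher in ASK1-MKO than in NFATc3-MKO livers by 0.57 ± 0.15 (SE; edgeR adjusted p = 0.0241), though these groups overlapped. Dropping ASK1-MKO replicate 2 or 3, dropping NFATc3-MKO replicate 2, 3 or 4, or fitting these groups alone ended that call (adjusted p 0.0508 to 0.108). Dropping NFATc3-MKO replicate 1 raised it to 0.79 (0.000738). In whole liver, fewer cells of a type and less RNA per cell cannot be told apart. Map3k5 lies on chromosome 10, 19934472 to 20142753 in mm10, on the plus strand.

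Map3k6, which forms complexes with ASK1, was the scarcest of the 10 genes, with 9 to 68 counts per liver. It stood at 1.427 ± 0.291 CPM in MDKO, 1.981 ± 0.271 in ASK1-MKO, 1.79 ± 0.334 in NFATc3-MKO and 1.536 ± 0.538 in Lyz2-Cre livers (SD, n = 4 each). None of these differences passed edgeR's test, and the largest between groups, −0.44 between MDKO and ASK1-MKO livers, had an adjusted p of 0.313 with groups that did not overlap.

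Txn1 gave no difference between liver groups that passed the test. It stood at 156.6 to 211 CPM in MDKO, 148.2 to 165.6 in ASK1-MKO, 140.9 to 242.6 in NFATc3-MKO and 140.8 to 197.2 CPM in Lyz2-Cre livers. The log2 differences from Lyz2-Cre livers were 0.03 for MDKO, −0.11 for ASK1-MKO and 0.02 for NFATc3-MKO, each with an SE of 0.16 and an edgeR adjusted p of 0.737 or more. The gene of its binding partner Txnip, which inhibits thioredoxin, did change. Txnip had 76.97, 111.0, 88.8 and 91.96 CPM in MDKO livers, 407.7, 264.3, 183.7 and 136.9 CPM in ASK1-MKO livers, 325.3, 158.4, 176.5 and 168.0 CPM in NFATc3-MKO livers, and 67.32, 104.4, 97.29 and 88.4 CPM in Lyz2-Cre livers. Every ASK1-MKO and NFATc3-MKO liver lay above every MDKO and Lyz2-Cre liver, with replicate 1 the highest in both knockouts. Relative to Lyz2-Cre livers Txnip rose by 1.47 ± 0.29 in ASK1-MKO and by 1.21 ± 0.29 in NFATc3-MKO livers on the log2 scale (SE; edgeR adjusted p = 0.00531 and 0.0196).

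**Figure D3:**
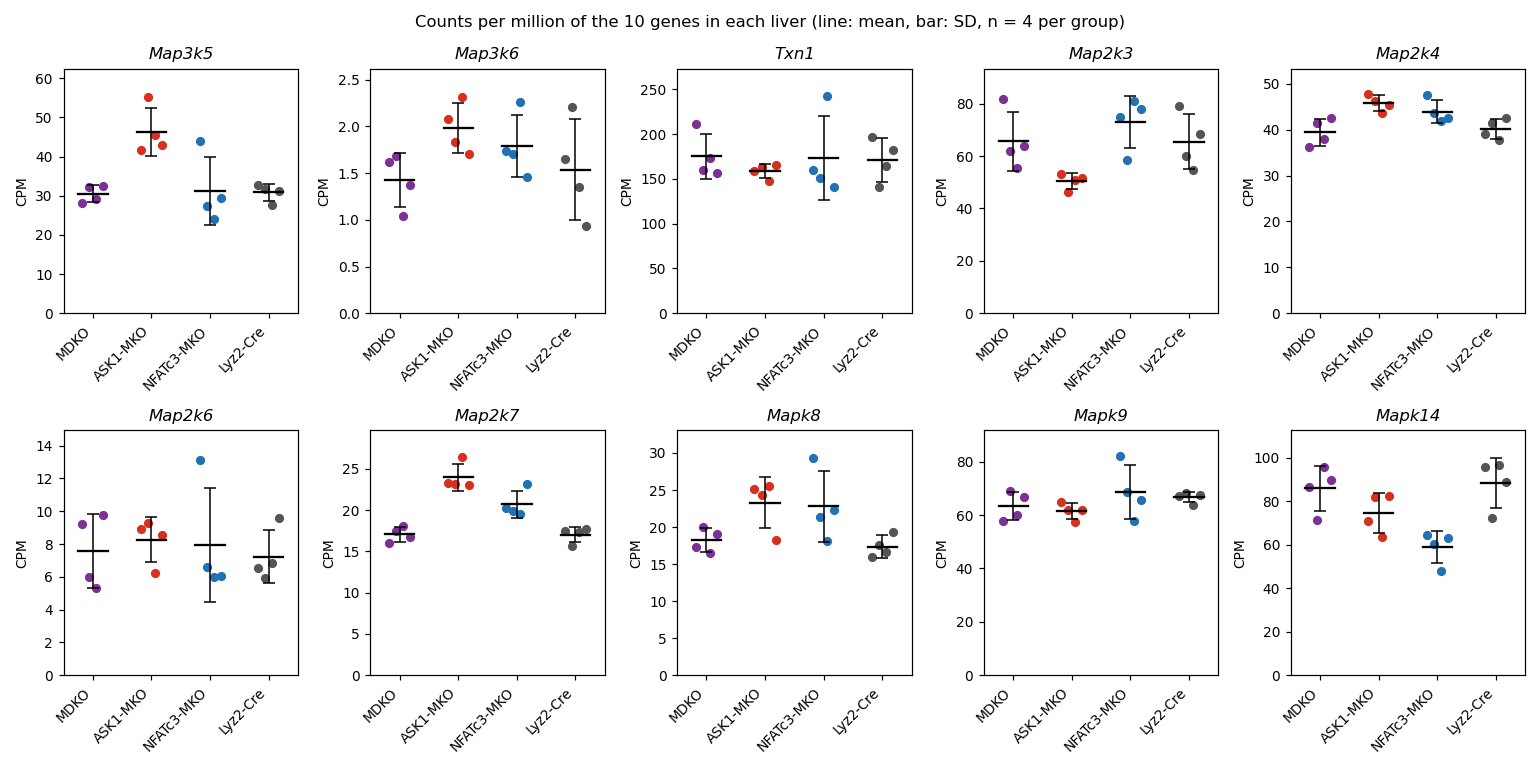
CPM of the 10 genes in each liver (points), with the group mean (line) and SD (bar), n = 4 per group, on axes that start at 0. Map3k5 and Map2k7 lie highest in ASK1-MKO livers (means 46.26 and 23.98 CPM) and Mapk14 lies lowest in NFATc3-MKO livers (58.95 CPM).

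Of the 4 MAP2K genes, Map2k7 was the one that changed against Lyz2-Cre livers. It had 16.00, 17.51, 18.08 and 16.69 CPM in MDKO livers, 23.33, 23.10, 26.41 and 23.07 CPM in ASK1-MKO livers, 20.22, 19.83, 19.57 and 23.13 CPM in NFATc3-MKO livers, and 17.41, 15.64, 17.31 and 17.69 CPM in Lyz2-Cre livers. The MDKO and Lyz2-Cre livers overlapped, and every liver of the other 2 groups lay above them. Map2k7 rose in ASK1-MKO livers relative to Lyz2-Cre livers by 0.50 ± 0.10 on the log2 scale (SE; edgeR adjusted p = 0.00465; exact permutation p = 0.0286), and passed in all 15 other settings run (0.45 to 0.53). It fell in MDKO relative to ASK1-MKO livers by 0.49 ± 0.10 on the log2 scale (SE; edgeR adjusted p = 0.00504). In NFATc3-MKO livers it differed from Lyz2-Cre livers by 0.28 ± 0.10 (SE), which did not pass (edgeR adjusted p = 0.0744). DESeq2 (0.0349) and voom (0.00824) called it, in a range of 0.00824 to 0.186 over the settings. Map2k7 (chromosome 8, 4238740 to 4247897 in mm10, plus strand) shares 1349 exon bases with the gene Gm49320 on the same strand. Its liver counts were whole, within 0.01, in 2 of 16 livers, so its reads may have been split with that gene and its values are uncertain.

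Map2k3 and Map2k6, which encode the p38 MAP2Ks MKK3 and MKK6, differed from each other. Map2k3 had 81.82, 61.87, 55.40 and 63.82 CPM in MDKO livers, 53.31, 46.14, 50.78 and 51.71 CPM in ASK1-MKO livers, 75.05, 58.68, 80.93 and 77.96 CPM in NFATc3-MKO livers, and 78.99, 60.12, 54.73 and 68.44 CPM in Lyz2-Cre livers. All ASK1-MKO livers lay below every liver of the other 3 groups. The difference was −0.54 ± 0.14 from NFATc3-MKO livers (SE; edgeR adjusted p = 0.0211), which passed, and −0.38 ± 0.14 from Lyz2-Cre livers (0.107), which did not. The call against NFATc3-MKO livers was lost without ASK1-MKO replicate 2 or NFATc3-MKO replicate 3 or 4 (adjusted p 0.0537 to 0.0665). Map2k6 stood at 5.298 to 9.783 CPM in MDKO, 6.254 to 9.301 in ASK1-MKO, 5.992 to 13.14 in NFATc3-MKO and 5.948 to 9.593 CPM in Lyz2-Cre livers, with no call in any comparison.

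Map2k4, which encodes MKK4, was the steadiest of the genes across livers. Its highest liver had 1.33 times the CPM of its lowest, a ratio smaller in 1.55% of all genes tested, whose median ratio was 2.16. It averaged 39.5 ± 2.94 CPM in MDKO, 45.76 ± 1.76 in ASK1-MKO, 43.91 ± 2.47 in NFATc3-MKO and 40.22 ± 2.22 CPM in Lyz2-Cre livers (SD, n = 4 each). All 4 ASK1-MKO livers (43.67 to 47.9 CPM) lay above all Lyz2-Cre livers (37.7 to 42.6 CPM), but the difference of 0.19 ± 0.09 on the log2 scale did not pass (edgeR adjusted p = 0.219). Groups that did not overlap were found for 4 of the 10 genes between ASK1-MKO and Lyz2-Cre livers (18.2% of all genes) and for 2 of 10 between NFATc3-MKO and Lyz2-Cre livers (12.8%). Between MDKO and Lyz2-Cre livers none of the 10 was without overlap (0.458% of all genes).

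At the level of the MAP kinases, Mapk14 was the gene that moved in NFATc3-MKO livers. It had 86.45, 71.41, 95.94 and 89.75 CPM in MDKO livers, 70.78, 81.84, 63.39 and 82.44 CPM in ASK1-MKO livers, 64.33, 60.24, 47.94 and 63.28 CPM in NFATc3-MKO livers, and 95.68, 72.27, 96.87 and 88.87 CPM in Lyz2-Cre livers. The NFATc3-MKO livers lay below all MDKO and Lyz2-Cre livers and overlapped with one ASK1-MKO liver. Relative to Lyz2-Cre livers Mapk14 fell by 0.58 on the log2 scale in NFATc3-MKO livers (SE 0.13; edgeR adjusted p = 0.0158; exact permutation p = 0.0286). Dropping Lyz2-Cre replicate 3 ended the call (−0.54, adjusted p = 0.0651), as did fitting these groups alone (0.07), in a range of 0.00205 to 0.07. Without NFATc3-MKO replicate 1 the log2 difference was −0.62 (edgeR adjusted p = 0.0172). In MDKO livers Mapk14 was higher than in NFATc3-MKO livers by 0.54 ± 0.13 (SE; edgeR adjusted p = 0.0235). Dropping MDKO replicate 3 (0.49) or 4 (0.52) or NFATc3-MKO replicate 3 (0.45), or fitting these groups alone (0.54), ended that call at adjusted p of 0.0581 to 0.0818, in a range from 0.00516. Mapk14 lies on chromosome 17, 28691329 to 28748406 in mm10, on the plus strand.

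Some markers of other cell types were also called in NFATc3-MKO livers, where 8.45% of all genes tested changed. The sums of every list given for these livers overlapped with those of Lyz2-Cre livers, save B and plasma cells. The summed CPM of the 9 hepatocyte markers was 78120 to 119500 in NFATc3-MKO and 105500 to 143500 in Lyz2-Cre livers. Of the 9, 2 fell on the log2 scale, Hnf4a (−0.55) and Ass1 (−0.79). The 10 pan-macrophage markers summed to 200.9 to 811.5 CPM in NFATc3-MKO and 171.4 to 419.3 CPM in Lyz2-Cre livers, and none of the 10 was called. The Kupffer cell markers summed to 207.5 to 264.1 CPM in NFATc3-MKO and 259.5 to 455.6 CPM in Lyz2-Cre livers, and 2 of 8, Clec4f (−1.14) and C6 (−0.91), fell. The 9 markers of lipid-associated and monocyte-derived macrophages summed to 175.8 to 1001 CPM in NFATc3-MKO and 145.1 to 332.0 CPM in Lyz2-Cre livers, and 1, Spp1 (1.86), rose. Spp1 is also among the 7 cholangiocyte markers, of which it and Epcam (1.93) rose, with sums of 96.13 to 402.3 CPM in NFATc3-MKO and 64.55 to 131.4 CPM in Lyz2-Cre livers. Also higher in NFATc3-MKO livers were 2 of 5 tested neutrophil markers, S100a8 (2.21) and S100a9 (2.45), and 2 of 5 tested B and plasma cell markers, Jchain (1.65) and Igkc (1.83). The neutrophil sums were 9.047 to 48.2 CPM in NFATc3-MKO and 4.424 to 14.53 CPM in Lyz2-Cre livers, and the B and plasma cell sums 18.8 to 61.4 CPM in NFATc3-MKO and 8.84 to 15.37 CPM in Lyz2-Cre livers. Of the stellate cell and myofibroblast markers 2 of 9 rose (Acta2, 1.15, and Tagln, 1.25), with sums of 203.7 to 610.1 CPM in NFATc3-MKO and 255.8 to 367.4 CPM in Lyz2-Cre livers. Of the endothelial markers 2 of 8 fell (Clec4g, −0.68, and Fcgr2b, −0.60), with sums of 147.0 to 215.5 CPM in NFATc3-MKO and 213.4 to 270.4 CPM in Lyz2-Cre livers. In ASK1-MKO livers the erythroid list was the one of 14 marker lists with called genes (2 of 5 tested, lower). The erythroid markers there summed to 129.6 to 254.6 CPM, against 263.3 to 403.8 CPM in Lyz2-Cre livers, while the hepatocyte sum was 115700 to 134300 CPM. The part of these marker differences in the Mapk14, Map3k5 and Map2k7 results was not tested.

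Of the JNK genes, Mapk8 was higher in both single knockouts without passing the test. It had 17.25, 20.01, 16.47 and 19.07 CPM in MDKO livers, 25.14, 24.27, 25.52 and 18.29 CPM in ASK1-MKO livers, 29.36, 21.42, 18.05 and 22.34 CPM in NFATc3-MKO livers, and 15.89, 17.55, 16.60 and 19.39 CPM in Lyz2-Cre livers. In each single knockout 3 of the 4 livers lay above all Lyz2-Cre livers, and 1 (ASK1-MKO replicate 4, NFATc3-MKO replicate 3) lay among them. The log2 differences from Lyz2-Cre livers were 0.43 ± 0.14 in ASK1-MKO and 0.39 ± 0.14 in NFATc3-MKO livers (SE; edgeR adjusted p = 0.078 and 0.0956). The ASK1-MKO difference passed with DESeq2 (0.049), voom (0.0435), a fit of these groups alone (0.0441) and without ASK1-MKO replicate 4 (0.0391), in a range up to 0.183. Mapk9 stood at 57.91 to 69.12 CPM in MDKO, 57.47 to 64.88 in ASK1-MKO, 57.81 to 82.13 in NFATc3-MKO and 63.94 to 68.28 CPM in Lyz2-Cre livers, with no call.

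The direct comparisons among the knockouts gave 2 of 10 genes lower in MDKO than in ASK1-MKO livers (Map3k5 and Map2k7; 7.72% of all genes changed, 3.46% higher and 4.26% lower), with 5 of 10 without overlap (18.1%). In MDKO relative to NFATc3-MKO livers 1 of 10 rose (Mapk14; 7.35% of all genes changed, 4.06% higher and 3.29% lower), with 2 of 10 without overlap (12.7%). In ASK1-MKO relative to NFATc3-MKO livers 1 rose and 1 fell (Map3k5 and Map2k3; 12.8% of all genes changed, 5.61% higher and 7.15% lower), with 1 of 10 without overlap (14.6%). All these comparisons share groups with each other. The interaction asks whether knocking out ASK1 moved a gene differently with NFATc3 also knocked out. It takes the MDKO to NFATc3-MKO difference and subtracts from it the ASK1-MKO to Lyz2-Cre difference. It was called for 3 of 10 genes, where 16.2% of all genes were called (8.17% positive and 8% negative). Map2k7 had an interaction of −0.77 ± 0.14 and Mapk8 of −0.75 ± 0.20, so that MDKO livers lay lower than the single knockouts add up to (SE; edgeR adjusted p = 0.00124 and 0.02). Mapk14 had an interaction of 0.79 ± 0.19, with MDKO livers higher than the sum (SE; edgeR adjusted p = 0.01). These 3 calls held in all 22 other settings run. Without NFATc3-MKO replicate 1 the values were −0.80 for Map2k7, −0.62 for Mapk8 and 0.81 for Mapk14, and without MDKO replicate 3 they were −0.80, −0.70 and 0.73. Map3k5 had −0.61 ± 0.22, which did not pass (edgeR adjusted p = 0.0644). Since MDKO libraries lay closest to their same-numbered Lyz2-Cre libraries across all genes, these values rest on that likeness too, and its part was not tested.

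The sequences just before the start of 4 genes are shown: the 3 genes called in a knockout group against Lyz2-Cre livers (Map3k5, Map2k7 and Mapk14), and Map2k6, with the largest fold change of the 10 in ASK1-MKI cultures. They are from RefSeq (GRCm38.p6), read 5′ to 3′ on the plus strand and ending at the base before the annotated gene or RefSeq start, whichever comes first. Capitals mark matches to the motifs searched. Map3k5 is at chr10:19934276-19934471, Map2k7 at chr8:4238490-4238739, Mapk14 at chr17:28691092-28691328 and Map2k6 at chr11:110398852-110399101.
Map3k5: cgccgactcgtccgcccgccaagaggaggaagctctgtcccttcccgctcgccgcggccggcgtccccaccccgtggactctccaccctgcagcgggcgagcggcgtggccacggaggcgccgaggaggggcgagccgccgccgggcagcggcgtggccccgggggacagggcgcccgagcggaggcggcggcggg
Map2k7: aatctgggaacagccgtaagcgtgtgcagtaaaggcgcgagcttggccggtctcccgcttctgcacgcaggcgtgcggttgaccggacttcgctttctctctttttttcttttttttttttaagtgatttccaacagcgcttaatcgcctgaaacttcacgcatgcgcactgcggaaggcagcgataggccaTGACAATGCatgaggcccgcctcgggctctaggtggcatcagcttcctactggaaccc
Mapk14: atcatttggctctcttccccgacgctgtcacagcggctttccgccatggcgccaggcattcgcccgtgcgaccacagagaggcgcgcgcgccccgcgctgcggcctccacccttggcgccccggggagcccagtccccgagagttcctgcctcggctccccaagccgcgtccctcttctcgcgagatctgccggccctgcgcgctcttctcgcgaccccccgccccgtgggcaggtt
Map2k6: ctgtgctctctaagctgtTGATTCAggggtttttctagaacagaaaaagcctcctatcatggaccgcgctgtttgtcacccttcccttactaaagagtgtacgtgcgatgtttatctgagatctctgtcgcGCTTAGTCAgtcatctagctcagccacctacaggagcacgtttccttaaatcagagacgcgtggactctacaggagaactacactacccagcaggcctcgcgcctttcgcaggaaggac
The 250 bases before the RefSeq start of each of the 10 genes were searched on both strands for letters known from factors that the cascade or NFATc3 acts through or that answer oxidative stress. The AP-1 letters TGANTCA, bound by JUN and FOS, were found in 1 of 10 (Map2k6, 232 bases before its start) and in 6.75% of 32851 promoters. The antioxidant response letters TGACNNNGC, which can overlap with AP-1 letters, were found in 2 of 10 and 10.2% of promoters. They lie 58 bases before the start of Map2k7 and, on the opposite strand, 119 bases before that of Map2k6. The NFAT core letters GGAAAA were found in 2 of 10 (Mapk8 and, at 2 places, Txn1) and in 20.4% of promoters. The CRE letters TGACGTCA were found in 0 of 10 and 1.55% of promoters. The Map3k5 window was 80.8% G and C, beside a median of 52.4% over all promoters.

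Within each library, genes with like roles can be set as ratios of CPM per kb, which do not depend on how libraries are scaled. The Mapk8 to Mapk9 ratio was 0.17 ± 0.0058 in MDKO, 0.225 ± 0.0367 in ASK1-MKO, 0.196 ± 0.0133 in NFATc3-MKO and 0.154 ± 0.012 in Lyz2-Cre livers (SD, n = 4 each). Every ASK1-MKO liver (0.175 to 0.263) and every NFATc3-MKO liver (0.185 to 0.212) lay above every Lyz2-Cre liver (0.141 to 0.17). The Map2k4 to Map2k7 ratio was 1.9 ± 0.152 in MDKO, 1.58 ± 0.147 in ASK1-MKO, 1.75 ± 0.176 in NFATc3-MKO and 1.95 ± 0.175 in Lyz2-Cre livers. Here ASK1-MKO livers (1.36 to 1.69) lay below Lyz2-Cre livers (1.79 to 2.18), with the uncertainty of Map2k7 given above. The Map2k3 to Map2k6 ratio was 9.39 in MDKO, 6.52 in ASK1-MKO, 10.6 in NFATc3-MKO and 9.68 in Lyz2-Cre livers, with groups that overlapped. Map3k6 to Map3k5 was 0.0574 to 0.081 as a group mean. These ratios are given without a test.

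**Figure D4:**
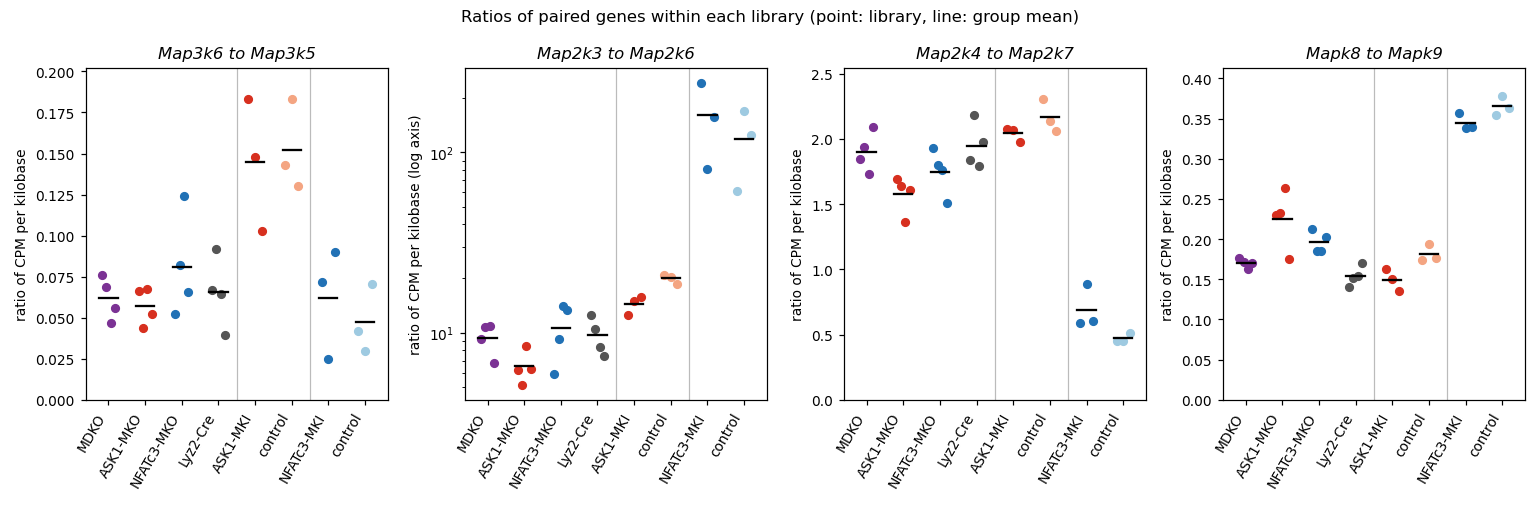
Ratio of CPM per kilobase between genes of like role in each library (points) with group means (lines), for livers and, right of the grey lines, for each culture set. The Mapk8 to Mapk9 ratio averages 0.225 in ASK1-MKO, 0.196 in NFATc3-MKO and 0.154 in Lyz2-Cre livers.

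In the cultures labelled ASK1-MKI, 5 of the 10 genes changed against their controls: Map2k6, Mapk14, Txn1 and Mapk9 rose and Map3k5 fell. In this set 49.1% of the 11380 genes tested changed (24.6% higher and 24.5% lower), and groups did not overlap for 5 of 10 genes and 54.5% of all genes. Map3k5 had 26.74, 27.32 and 26.69 CPM in ASK1-MKI cultures, against 30.15, 29.97 and 30.32 CPM in their controls. All 3 ASK1-MKI cultures lay below all 3 controls, and the log2 difference was −0.16 ± 0.06 (SE; edgeR adjusted p = 0.0266). The labels do not state what the ASK1 knock-in inserts, so this fall cannot be set against the label. DESeq2 did not make this call (adjusted p = 0.0827), nor did edgeR after dropping replicate 1 or 3 of the ASK1-MKI cultures or of their controls, in a range of 0.0228 to 0.0827. For 3 against 3 libraries the smallest exact permutation p is 0.1, and each of the 5 genes had it. Libraries of this set differed little within a group. The spread that edgeR found beyond counting noise was 0.0214 of the mean, against 0.0892 in the NFATc3-MKI set and 0.208 in livers. Small p-values in this set measure that narrow spread, and whether its cultures came from separate animals is not stated.

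Mapk14 showed the clearest difference in these cultures. It had 220.4, 223.0 and 221.1 CPM in ASK1-MKI cultures and 187.0, 191.2 and 184.1 CPM in their controls, without overlap, a rise of 0.24 ± 0.03 on the log2 scale (SE; edgeR adjusted p = 1.13e-13). Txn1 had 389.9, 395.6 and 388.3 CPM in ASK1-MKI cultures and 364.0, 346.7 and 367.4 CPM in their controls, a rise of 0.12 ± 0.02 (SE; edgeR adjusted p = 4.11e-06). Both held in all 12 other settings run. Mapk9 had 92.65, 92.09 and 92.95 CPM in ASK1-MKI cultures and 87.18, 86.34 and 82.36 CPM in their controls, a rise of 0.12 ± 0.04 (SE; edgeR adjusted p = 0.00597) that was lost without control replicate 3 (0.0646, range 0.00446 to 0.0646). Map2k6, with 42 to 68 counts per culture, had 4.269, 3.705 and 3.575 CPM in ASK1-MKI cultures and 2.644, 2.421 and 2.814 CPM in their controls. It rose by 0.55 ± 0.18, the largest fold change of the 10 in these cultures (SE; edgeR adjusted p = 0.00961), a call lost without ASK1-MKI replicate 1 (0.0581, range 0.00976 to 0.0581).

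The other 5 genes did not pass in ASK1-MKI cultures. Mapk8 had 25.49, 23.27 and 21.33 CPM in ASK1-MKI cultures and 25.54, 28.30 and 24.48 CPM in their controls, with overlap (−0.16 ± 0.07 SE, edgeR adjusted p = 0.0506), and passed in 5 of 12 other settings (range 0.0132 to 0.32). The Mapk8 to Mapk9 ratio was 0.15 ± 0.0135 in ASK1-MKI cultures and 0.181 ± 0.011 in their controls (SD, n = 3). Map2k3, Map2k4 and Map2k7 differed by 0.08, −0.03 and 0.06 on the log2 scale, and Map3k6 by −0.23 ± 0.19 (SE), all with edgeR adjusted p of 0.188 or more. The pan-macrophage markers summed to 36130 to 38110 CPM in ASK1-MKI cultures and 34040 to 36370 CPM in their controls, with 6 of 10 higher and 3 lower. The neutrophil markers summed to 287.9 to 300.1 CPM in ASK1-MKI cultures and 1198 to 1246 CPM in their controls, with 4 of 5 tested lower. Of the Kupffer cell markers 5 of 5 tested were lower, and of the lipid-associated and monocyte-derived macrophage markers 6 of 9 were higher and 3 lower. Their part in the gene differences was not tested.

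**Figure D5:**
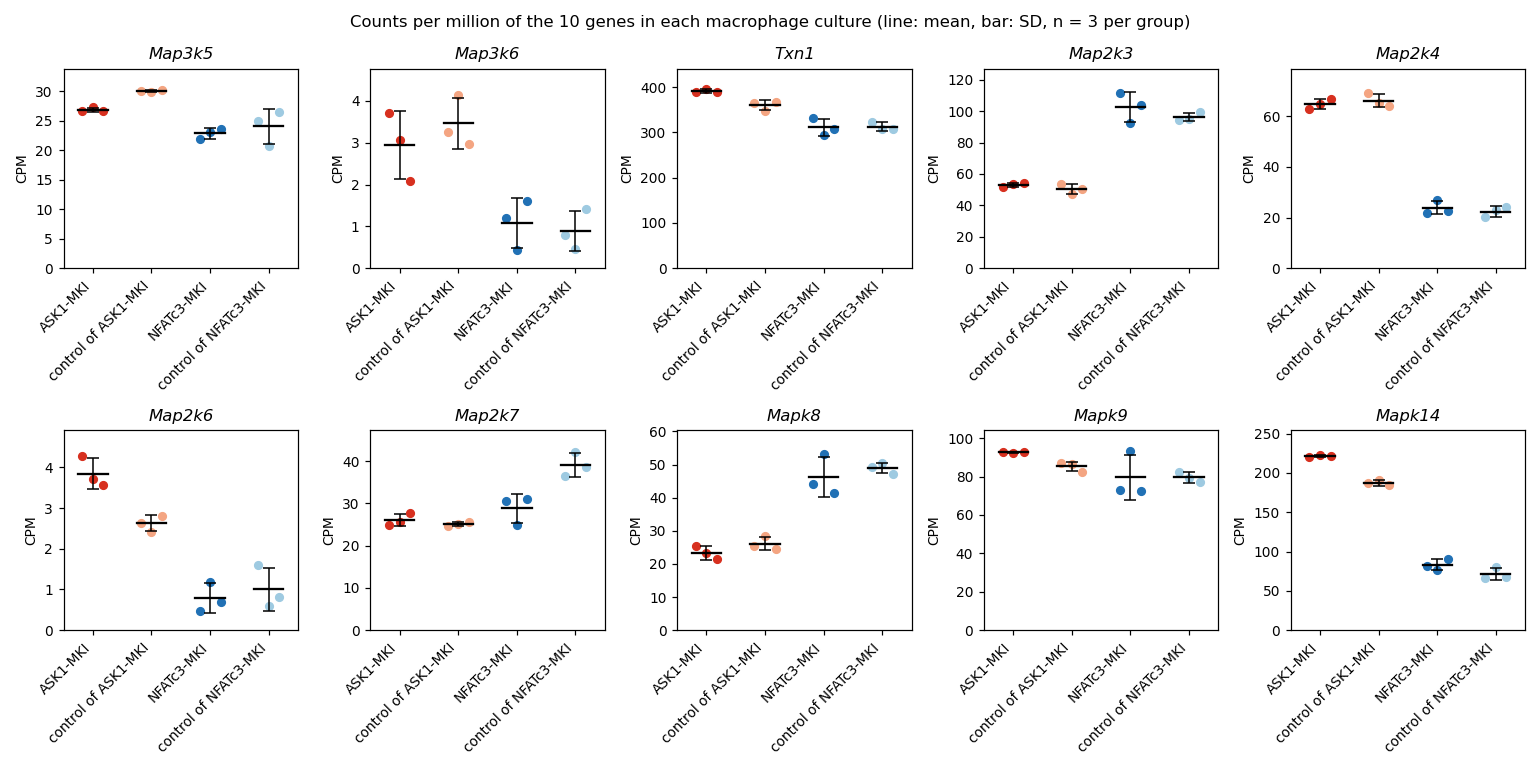
CPM of the 10 genes in each culture labelled as macrophages (points), with the group mean (line) and SD (bar), n = 3 per group, on axes that start at 0. Mapk14 is higher in ASK1-MKI cultures (221.5 CPM on average) than in their controls (187.4), and Map2k7 is lower in NFATc3-MKI cultures (28.84) than in theirs (39.07).

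In the cultures labelled NFATc3-MKI, 1 of the 9 genes tested changed, where 33.3% of 13363 genes did (16.5% higher and 16.8% lower) and groups did not overlap for 1 of 9 and 45.8% of all genes. Map2k7 had 30.65, 24.89 and 30.97 CPM in NFATc3-MKI cultures and 36.49, 42.09 and 38.62 CPM in their controls. The groups did not overlap, and Map2k7 fell by 0.44 on the log2 scale (SE 0.12; edgeR adjusted p = 0.00536; exact permutation p = 0.1), in all 12 other settings too. How its reads were assigned in these cultures is not given. The exon bases it shares with Gm49320 make these values uncertain too. Mapk14 had 82.05, 76.61 and 91.08 CPM in NFATc3-MKI cultures and 66.33, 80.80 and 67.23 CPM in their controls. These overlapped, and the difference of 0.22 ± 0.10 did not pass (SE; edgeR adjusted p = 0.0983), though it did in 3 of 12 other settings (range 0.00999 to 0.322). Map2k6, at 4 to 12 counts per culture, was too scarce to be tested. Map3k5 stood at 22.9 ± 0.886 CPM in NFATc3-MKI cultures and 24.11 ± 2.95 CPM in their controls (SD, n = 3; edgeR adjusted p = 0.695), and the other 6 genes differed by −0.08 to 0.25 on the log2 scale. The pan-macrophage markers summed to 2408 to 2640 CPM in NFATc3-MKI cultures and 1723 to 1842 CPM in their controls, with 7 of 9 tested higher. The lipid-associated and monocyte-derived macrophage markers summed to 18430 to 23030 CPM in NFATc3-MKI cultures and 5156 to 5801 CPM in their controls, with 5 of 7 tested higher. Spp1, which is in this list and the cholangiocyte list, made up most of that sum, at 19200 CPM on average in NFATc3-MKI cultures and 4258 CPM in their controls. The liver endothelial markers summed to 150.3 to 155.5 CPM in NFATc3-MKI cultures and 61.58 to 66.15 CPM in their controls, with 1 of 2 tested higher (Fcgr2b, 1.37). The part of these shifts was not tested.

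The wider pathway was read from 7 lists of 107 genes: ASK1 regulators, other MAP3Ks, other JNK and p38 kinases with their scaffolds, kinases downstream of p38, transcription factors downstream of both, MAP kinase phosphatases and ERK kinases. In ASK1-MKO livers 8 of the 104 tested rose and 2 fell against Lyz2-Cre livers (9.62%, beside 8.46% of all genes). They included Mknk2 (0.57) and Rps6ka5 (0.95), kinases activated by p38, and Elk4 (0.59), Atf2 (0.52) and Mef2d (0.49), transcription factors that MAP kinases act on. Tab2 (0.55), an adaptor of the MAP3K TAK1, and the phosphatase gene Ppm1a (0.42) also rose on the log2 scale. Traf5 (−0.86), a TNF receptor adaptor, and Dusp10 (−0.93), a phosphatase of JNK and p38, fell. In NFATc3-MKO livers 4 rose and 3 fell (6.73%, beside 8.45%): with Txnip rose Tnfrsf1a (0.33), the TNF receptor gene, Elk4 (0.53) and Mapk7 (0.74), the ERK5 gene, while Map3k4 (−0.40), Dusp6 (−0.59), an ERK phosphatase, and Dusp16 (−1.01), a JNK phosphatase, fell. In MDKO livers 0 of 104 changed.

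Between the knockouts, MDKO livers had 2 of 104 list genes higher and 7 lower than ASK1-MKO livers (8.65%, beside 7.72% of all genes). They had 3 higher and 4 lower than NFATc3-MKO livers (6.73%, beside 7.35%). ASK1-MKO livers had 7 higher and 6 lower than NFATc3-MKO livers (12.5%, beside 12.8%), with Dusp1, another JNK and p38 phosphatase, 1.08 higher on the log2 scale. The interaction was called for 17 of 104 (16.3%, beside 16.2% of all genes), 7 positive and 10 negative. Txnip had −2.64 ± 0.41 (SE; edgeR adjusted p = 0.000565). Of the 18 transcription factor genes tested, 1 was positive and 3 were negative. The positive one was Jun, the AP-1 gene, at 1.51 ± 0.36 (SE). Jun stood at 64.38 CPM in MDKO livers, against 34.58 CPM in NFATc3-MKO livers. Of the 7 kinases downstream of p38, 3 were negative: Mknk1 (−1.20), Mknk2 (−0.83) and Rps6ka5 (−1.38). These interactions rest on the likeness of MDKO to same-numbered Lyz2-Cre libraries too, and its part was not tested.

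In cultures many list genes moved, as did genes at large. In ASK1-MKI cultures 22 of 97 rose and 37 fell (60.8%, beside 49.1% of all genes). Among 15 phosphatase genes 2 rose and 8 fell: Dusp6 rose (0.77) while Dusp1 (−1.03) and Dusp16 (−0.73) fell. Among ASK1 regulators 7 of 26 rose and 7 fell, with Glrx, the glutaredoxin gene, at 1.05 and Txnip at −0.51 on the log2 scale. Fosl2 (−0.86) and Jun (−0.44), partners in AP-1, fell, and Fos rose (0.36). In NFATc3-MKI cultures 23 of 99 rose and 26 fell (49.5%, beside 33.3%). Of 15 phosphatase genes 8 rose and 3 fell, with Dusp5 (1.29), Dusp2 (0.87) and Dusp1 (0.67) among those that rose. Of 17 other MAP3K genes 1 rose and 6 fell, with Map3k2 (−0.79) and Taok1 (−0.68) among those that fell. Of 18 transcription factor genes 5 rose and 7 fell, with the stress factor gene Ddit3 (1.25) and Fosl1 (1.52) among those that rose. Of 26 ASK1 regulators 6 rose, Glrx (1.16) among them, and 2 fell.

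Across the 16 livers the gene profile most like that of Map3k5 was found by the root mean square difference of log2 CPM, each gene scaled to its own SD, over 11899 genes with a median difference of 1.387. The closest were Sppl2a (0.349), Brca2 (0.361), Klhl3 (0.407), Tmem106b (0.41) and Stim1 (0.415). Each averaged highest in ASK1-MKO livers: Sppl2a, for example, had 216.8 CPM in MDKO, 255.6 in ASK1-MKO, 206.6 in NFATc3-MKO and 213.3 in Lyz2-Cre livers. The closest of the other 9 cascade genes was Map2k4, at 0.767 and rank 739. The likeness is a description over 16 libraries in 4 groups. These genes were chosen for their likeness to Map3k5, itself highest in ASK1-MKO livers, so their order of groups is no separate finding.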

How the data were processed

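Messenger RNA libraries were made with a TRIzol extraction, poly-A selection and a dUTP strand-marking kit, per the labels' protocols. Per the submitters' processing notes, reads were aligned with HISAT2 to mm10. How reads were assigned to genes, and whether by strand, is not given in the sources used here. For livers the authors gave expected counts (85.42% of values whole), rounded here to whole numbers. The deposited culture tables hold raw counts, whole and not normalized by the authors.

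Gene symbols were matched to GENCODE annotation of mm10 for 16793 of 17752 liver genes and for 21851 of 21959 and 52073 of 56748 identifiers of the ASK1-MKI and NFATc3-MKI tables. Each table was fitted alone, all 16 livers in one fit, with edgeR 4.0.16 in R 4.3.3: filterByExpr (13309, 11380 and 13363 genes kept), TMM scaling and the robust quasi-likelihood F test, with p adjusted by Benjamini and Hochberg across every gene tested, and a threshold of 0.05. SE is the log2 fold change over the square root of F. CPM are counts scaled to TMM library sizes. The two-sided exact permutation test used log2 CPM with a prior count of 2. The steps were tested on simulated data.

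The 10 genes, the pathway and marker lists and the tests were chosen with earlier results of these data known. All 10 genes and Nfatc3 are named throughout, and list genes are named from those called, up to the 6 with the smallest p per list. Alternatives were DESeq2 1.42.0 size factors and Wald test, limma 3.58.1 voom with quality weights, filtering nothing or on a mean of 1 CPM, a replicate block, fits of the 2 groups of a comparison alone, and dropping single libraries. For MDKO against Lyz2-Cre, a 2-group fit with the block was chosen after seeing the data. Same-numbered MDKO and Lyz2-Cre libraries deviated together (correlations of 0.24 to 0.53 over genes), so their numbers pair by the rule that every pair exceed 0.1. The labels name no shared source, and no other groups compared paired by that rule. Single numbers could still deviate together. Correlations were −0.21 to 0.56 between Lyz2-Cre and NFATc3-MKO and −0.18 to 0.28 between MDKO and NFATc3-MKO libraries, highest for replicate 2 in both.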

Additional observations from a re-analysis of the deposited data

Results flagged for a closer look

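By Dixon's test at 95%, 3 of 44 gene-by-group sets of 4 livers had a library far from the other 3; chance flags about 1 in 20 sets. Map2k6 had its highest value, 13.14 CPM, in NFATc3-MKO replicate 1, against 5.992 to 6.621 CPM in the other 3 livers of that label. Map2k7 had its highest, 26.41 CPM, in ASK1-MKO replicate 3, against 23.07 to 23.33 CPM in the others. Nfatc3 had its lowest, 19.64 CPM, in NFATc3-MKO replicate 3.

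The interaction term of the edgeR fit was called for 3 of the 10 genes, beside 16.2% of the 13309 genes tested. The log2 interaction was −0.77 for Map2k7, −0.75 for Mapk8 and 0.79 for Mapk14 (edgeR adjusted p = 0.00124, 0.02 and 0.01). As given above, MDKO libraries lay closest to their same-numbered Lyz2-Cre libraries, and the part of that likeness was not tested. The Map2k7 values are also uncertain.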

How the results depend on the processing

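Of 1357 log2 values of the 10 genes under other settings, 1308 kept their side of the threshold, 29 lost a call, 20 gained one and 0 called values reversed. Most of the 1357 belong to differences not called in the main fit, which had no call to lose. The 29 losses fell on the smaller called part, mostly on Map3k5 and Mapk14. The count of the 10 genes called also moved. Smaller changes in proportion included ASK1-MKO against Lyz2-Cre livers, from 2 to 3 with DESeq2, voom or only the 2 groups compared. ASK1-MKI, with 5 in the main fit, gave 4 to 6 over settings that kept all libraries. The changes larger in proportion follow. Against Lyz2-Cre livers, NFATc3-MKO gave 2 with DESeq2, 2 with voom and 0 with only the 2 groups compared. MDKO minus NFATc3-MKO gave 2, 2 and 0 in the same settings, ASK1-MKO minus NFATc3-MKO gave 1 with only the 2 groups compared, the interaction gave 5 with DESeq2, and NFATc3-MKI gave 2 with voom. Leaving out single libraries gave 1 to 3 for ASK1-MKO, 0 to 1 for NFATc3-MKO, 0 for MDKO, 1 to 2 for MDKO minus ASK1-MKO, 0 to 1 for MDKO minus NFATc3-MKO, 0 to 2 for ASK1-MKO minus NFATc3-MKO, 3 to 4 for the interaction, 4 to 5 for ASK1-MKI and 1 to 2 for NFATc3-MKI. Nfatc3 in NFATc3-MKI cultures lost its call with DESeq2 (0.0523) and without control replicate 2 or 3 or NFATc3-MKI replicate 1 or 3 (up to 0.166). The cause was not tested.

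Over all genes, voom called 2649 for ASK1-MKO (1126 with edgeR), 2628 for NFATc3-MKO (1124), 2571 for MDKO minus ASK1-MKO (1028), 2653 for MDKO minus NFATc3-MKO (978), 3102 for ASK1-MKO minus NFATc3-MKO (1697) and 3753 for the interaction (2153). DESeq2 called 1719 for NFATc3-MKO and 1628 for MDKO minus NFATc3-MKO. With only the 2 groups compared, the counts were 218, 283 and, for ASK1-MKO minus NFATc3-MKO, 671. Leaving out single livers gave 587 to 1025 for ASK1-MKO, 268 to 1585 for NFATc3-MKO, 547 to 833 for MDKO minus ASK1-MKO, 335 to 1423 for MDKO minus NFATc3-MKO and 931 to 2872 for ASK1-MKO minus NFATc3-MKO. With the replicate block MDKO minus Lyz2-Cre livers kept 0 of the 10 genes called, also with only those 2 groups. In cultures, where numbers did not pair, Mapk8 in ASK1-MKI passed with the block (0.0431). MDKO replicate 3 had the lowest depth, which limits Map3k6 (9 counts there).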

Other observations

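Txnip stood at very different levels in the 2 culture sets, which were tabulated separately. It had 8470, 8835 and 8315 CPM in NFATc3-MKI cultures and 9865, 8463 and 10070 CPM in their controls. In the other set it had 109.6, 104.3 and 109.3 CPM in ASK1-MKI cultures and 151.4, 152.8 and 154.4 CPM in their controls. Mapk8 to Mapk9 ratios per kilobase were 0.345 ± 0.0104 in NFATc3-MKI cultures and 0.365 ± 0.0117 in their controls, and Map2k4 to Map2k7 ratios were 0.692 ± 0.167 and 0.47 ± 0.0344 (SD, n = 3 each). The Map2k7 values are uncertain, as given above.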
